A study of Homo sapiens with 6 samples.

Results

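The 33 genes described here carry out or control the making of cholesterol and fatty acids. They were taken as every row of the 6 count tables whose gene name equals a name on a set list, which gave 33 of 32029 genes listed. The list holds 17 enzymes of sterol synthesis from HMGCS1 to DHCR7, 7 genes of sterol regulation and transport, and 9 genes of the fatty acid branch. RNA was sequenced from SW480, a human colorectal adenocarcinoma cell line, 48 h after transfection with a control siRNA (3 samples, labelled siNC and called siControl here) or an siRNA against the transcription factor ZEB1 (3 samples, siZEB1). No other treatment is given for either group, so transfection and the parental line are what they share. The methods say that the siRNAs were purchased and give no sequences, and no rescue with ZEB1 was analysed here. The question put to these 33 genes was whether the sterol and fatty acid branches differed between siZEB1 and siControl, and in which direction.

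Cholesterol is built from acetyl-CoA through mevalonate, farnesyl diphosphate, squalene and lanosterol, and fatty acids are built from the same acetyl-CoA by carboxylation, chain synthesis, elongation and desaturation. Both branches are textbook targets of the sterol regulatory element binding proteins (SREBPs), membrane-bound transcription factors encoded by SREBF1 and SREBF2. When sterols are low, SCAP escorts the SREBPs from the endoplasmic reticulum to the Golgi, where they are cut and released, and when sterols are high the INSIG proteins hold SCAP back. SREBP2 is best known for the sterol genes and SREBP1c for the fatty acid genes, and many of these promoters carry a sterol regulatory element beside a CCAAT box that the factor NF-Y binds.

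Counts of reads per gene summed to between 19040636 and 22357633 per sample, and levels below are CPM, the counts scaled to a common library total after TMM normalization, whose factors ran from 0.989 to 1.01. ZEB1 itself fell from 54.2 ± 6.24 CPM in siControl to 7.51 ± 0.843 CPM in siZEB1 (SD over 3 samples in each group), and the log2 fold change was -2.85. Of 9 colorectal epithelial markers 8 were listed in the count tables. Together they summed to 4822 to 5442 CPM in siControl and 5357 to 5964 CPM in siZEB1, with CDH17 under 10 counts in every sample. Markers of 5 other cell types were low. The fibroblast list summed to at most 10.9 CPM in any sample, the endothelial list to at most 2.73 CPM, the immune list to at most 1.15 CPM, the hepatocyte list to at most 0.831 CPM and the adipocyte list to at most 0.523 CPM. CDX1, DCN, CDH5, PTPRC and ADIPOQ were not among the 32029 genes listed. All 32029 had a count in some sample, so a gene missing from the list may have had no reads, which was not checked. The sums of the other cell types therefore rest on 4 of 5 fibroblast, 2 of 3 endothelial, 3 of 4 immune, 3 of 3 hepatocyte and 2 of 3 adipocyte genes. In bulk RNA, fewer cells of a kind and less RNA per cell cannot be told apart.

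The sterol enzymes moved in both directions, while the fatty acid genes mostly fell. A gene was called when edgeR's quasi-likelihood test gave a Benjamini-Hochberg adjusted p under 0.05 over the 14996 genes tested, and all 33 members passed the filter on low counts. Of the 33 members 7 rose and 9 fell, so 16 (48.5%) were called. Over all genes tested 40.2% were called, 19.0% higher and 21.2% lower, and among the 10434 genes at least as abundant as the least abundant member 48.2% were called. The members' share is therefore close to that of all genes above this floor, and reads as no more than that. The floor does not match the genes to the members by abundance. Sterol synthesis enzymes gave 5 higher, 3 lower and 9 not called of 17, with a median log2 fold change of 0.087. The fatty acid branch gave 1 higher, 5 lower and 3 not called of 9, with a median of -0.23 and 8 of 9 estimates below 0. The median over all genes was -0.0055.

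The changes were small in size. The median absolute log2 fold change was 0.19 over the members and 0.25 over all genes tested, or 0.21 over the genes at least as abundant as the least abundant member. Past a 1.5-fold change with an unadjusted p under 0.05 there were 3 members, PMVK, EBP and ELOVL6, all lower, which is 9.09% of the members against 16.6% of all genes (7.21% higher and 9.35% lower). The siControl and siZEB1 samples did not overlap for 19 of 33 members (57.6%), against 49.5% of all genes tested.

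**Figure D1:**
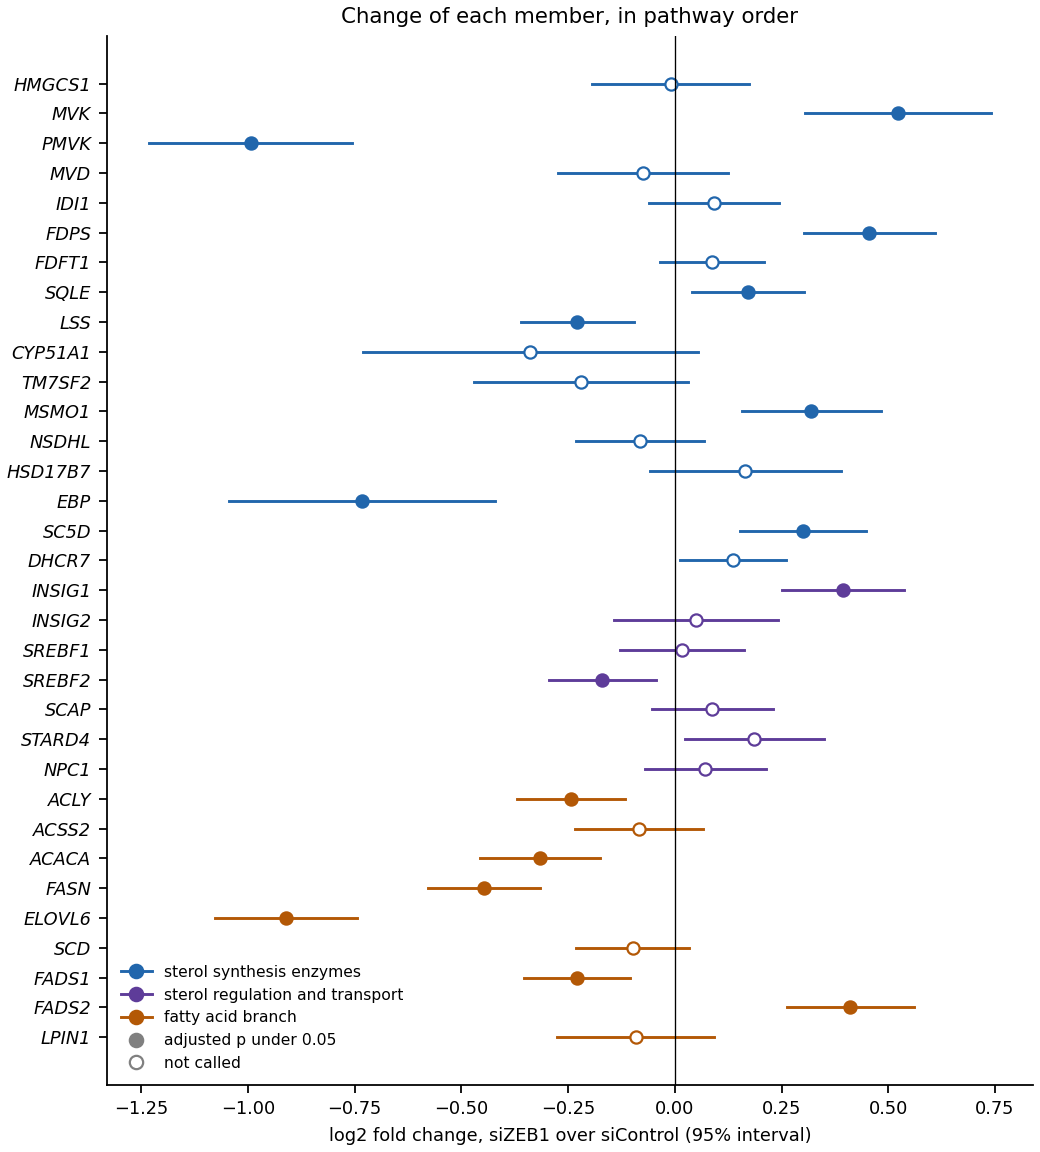
Log2 fold change of siZEB1 over siControl for each of the 33 members in pathway order, as points with 95% intervals from the edgeR fit (3 samples a group). PMVK, EBP and ELOVL6 lie farthest below 0, at -0.99, -0.73 and -0.91, and MVK lies farthest above 0, at 0.52.

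To show the sequence around the genes that moved, RefSeq promoter windows (GRCh38.p14, 250 bases before to 50 after each start) were searched on both strands for the sterol regulatory element TCACNCCAC, the NF-Y box CCAAT and the E-box CACCTG, the kind of site that ZEB1 is known to bind. A window was found for 30 of the 33 members, FASN, FDFT1 and SQLE being the others. Where a gene has several RefSeq starts, a match in any of its windows counted. The stretches below show the sterol regulatory element and 1 NF-Y box for each called member that holds one, as an example where its windows hold several. The ACACA box shown is 136 bases before its start at 37299767, and the window of its start at 37406836 holds none. The motif is in capitals, on either strand of the gene, with the gene's own strand after the coordinates, and E-boxes are given by their counts.
SREBF2, sterol regulatory element, chr22:41832962-41832991, plus strand: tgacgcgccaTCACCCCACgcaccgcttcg
SREBF2, NF-Y box, chr22:41832987-41833016, plus strand: cttcgctcgcccATTGGctgagatgagcct
INSIG1, NF-Y box, chr7:155297696-155297725, plus strand: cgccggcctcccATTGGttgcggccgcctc
MVK, NF-Y box, chr12:109573736-109573765, plus strand: tcgcgcgctctgATTGGctggcctgaagta
FDPS, NF-Y box, chr1:155308732-155308761, plus strand: gacggccagcagCCAATcagcgcggctcat
MSMO1, NF-Y box, chr4:165327581-165327610, plus strand: caactgcacagaCCAATcaccgcgccgaga
SC5D, NF-Y box, chr11:121292703-121292732, plus strand: cgccggtcgctgATTGGctggccgctccag
LSS, NF-Y box, chr21:46228907-46228936, minus strand: cgcggcgctctgATTGGttgcgtgggcgtc
EBP, NF-Y box, chrX:48521766-48521795, plus strand: cttcgcttcaccATTGGctcgctccgtaag
ACLY, NF-Y box, chr17:41919028-41919057, minus strand: gaacgcgtgtggCCAATcgcggggccgttc
ACACA, NF-Y box, chr17:37299886-37299915, minus strand: ttatttgttttgATTGGatctcagaaatta
FADS2, NF-Y box, chr11:61816397-61816426, plus strand: tccgcaggacacCCAATcaccgggcaacag

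The NF-Y box was in the windows of 21 of 30 members (70.0%), against 39.7% of all 27305 genes with a window and 42.8% of the 10428 tested genes with one. It was most frequent in the sterol enzymes, at 13 of 15, with 5 of 8 in the fatty acid branch and 3 of 7 in regulation and transport. By direction, it was in 6 of 6 members that rose, 5 of 8 that fell and 10 of 16 not called. PMVK, ELOVL6 and FADS1, which fell, hold no such letters in their windows. The sterol regulatory element in this exact form was in 1 member, SREBF2, 133 bases before its start, against 1.39% of all genes. The E-box was in 7 of 30 members (23.3%), against 24.1% of all genes, with 6 of the 7 in sterol enzymes, and in 2 of 6 members that rose and 2 of 8 that fell. A match is a stretch of letters, not a measured binding site.

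The mevalonate steps of the sterol branch split by enzyme. HMGCS1, which condenses acetyl-CoA and acetoacetyl-CoA to HMG-CoA at the head of the pathway, is a classical SREBP2 target. It was at 81.5, 82.1 and 66.0 CPM in siControl and at 72.8, 71.4 and 84.0 CPM in siZEB1. The groups overlapped, and the log2 fold change of -0.010 had a 95% interval of -0.19 to 0.17, with an adjusted p of 0.94 by edgeR.

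MVK and PMVK, the kinases that phosphorylate mevalonate in succession, moved in opposite directions. MVK (chromosome 12, 109573255 to 109598117, GRCh38) was at 16.3, 12.9 and 14.1 CPM in siControl and at 21.3, 22.0 and 18.9 CPM in siZEB1, so every siZEB1 sample was above every siControl sample. Its log2 fold change was 0.52 (SE 0.10), with an adjusted p of 0.0006 by edgeR. PMVK (chromosome 1, 154924734 to 154936991) was at 14, 13.4 and 15.7 CPM in siControl and at 6.99, 7.90 and 6.74 CPM in siZEB1. All siZEB1 samples were below the siControl samples, and PMVK fell by 0.99 on the log2 scale (SE 0.11, adjusted p = 2.18e-06, edgeR), or 49.9% of its siControl mean. That is the largest change among the 33 members.

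The remaining mevalonate steps were MVD, IDI1 and FDPS. MVD, the decarboxylase that makes isopentenyl diphosphate, had a log2 fold change of -0.074 (24.8 to 23.5 CPM), and IDI1, which isomerizes it, had 0.092 (46.1 to 49.1 CPM), and neither passed the test. FDPS, which joins these units into farnesyl diphosphate, was at 36.4, 32.9 and 35.8 CPM in siControl and at 47.0, 49.4 and 47.8 CPM in siZEB1. The groups did not overlap, and FDPS rose by 0.46 on the log2 scale (SE 0.073, adjusted p = 8.67e-05, edgeR). Exons on the opposite strand cover 18.6% of FDPS, 15.0% of HMGCS1 and 14.8% of IDI1 in GENCODE 29, and whether the counting used the strand is not given in the sources used here.

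From squalene on, 3 of 11 genes rose, 2 fell and 6 were not called, with a median log2 fold change of 0.087. FDFT1, squalene synthase, had a log2 fold change of 0.087 (146 ± 2.19 to 155 ± 3.51 CPM) and was not called. SQLE, the epoxidase that commits squalene to sterols, went from 129 ± 7.56 to 145 ± 2.26 CPM, a rise of 0.17 on the log2 scale (adjusted p = 0.0371, edgeR). This call was lost in 7 of 12 alternatives, 5 of them with 1 sample left out, with an adjusted p of up to 0.139. LSS, which cyclizes the epoxide to lanosterol, fell by 0.23 on the log2 scale, from 85.1 ± 0.431 to 72.7 ± 1.40 CPM (adjusted p = 0.00743, edgeR).

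The steps that turn lanosterol into cholesterol held a rise in MSMO1 and SC5D and a fall in EBP. MSMO1, the methylsterol monooxygenase, rose from 71.3 ± 7.13 to 89.0 ± 4.53 CPM (log2 fold change 0.32, adjusted p = 0.0031, edgeR). SC5D, a sterol desaturase near the end of the pathway, rose from 111 ± 10.5 to 136 ± 2.04 CPM (log2 fold change 0.30, adjusted p = 0.00244, edgeR). EBP, the sterol isomerase that acts just before SC5D, went the other way. It was at 9.83, 10.8 and 12.2 CPM in siControl and at 5.19, 8.16 and 6.37 CPM in siZEB1, without overlap. EBP (chromosome X, 48521158 to 48528716) fell by 0.73 on the log2 scale (SE 0.15, adjusted p = 0.000684, edgeR), or 40.0% of its siControl mean.

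The other late enzymes did not pass the test. CYP51A1, the lanosterol demethylase, was the least abundant member, at 4.99 ± 0.925 CPM in siControl and 3.96 ± 0.898 CPM in siZEB1. Its log2 fold change of -0.34 had a 95% interval of -0.73 to 0.053, and it was called, at -0.47 with an adjusted p of 0.0393 by edgeR, only when siControl replicate 3 was left out. In GENCODE 29 its exons share 79.4% of their bases with AC000120.2 on the same strand, which has no counts here, so its reads are uncertain. TM7SF2, a sterol reductase, had a log2 fold change of -0.22, NSDHL, which removes the carboxylated methyl groups, -0.082, and HSD17B7, the ketosteroid reductase, 0.16. DHCR7, the reductase that makes cholesterol from its last precursor in one route, was at 189 ± 6.28 CPM in siControl and 207 ± 8.54 CPM in siZEB1. Its 95% interval of 0.012 to 0.26 lay above 0, with an adjusted p of 0.0757 by edgeR that fell to 0.0445 without siZEB1 replicate 3.

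**Figure D2:**
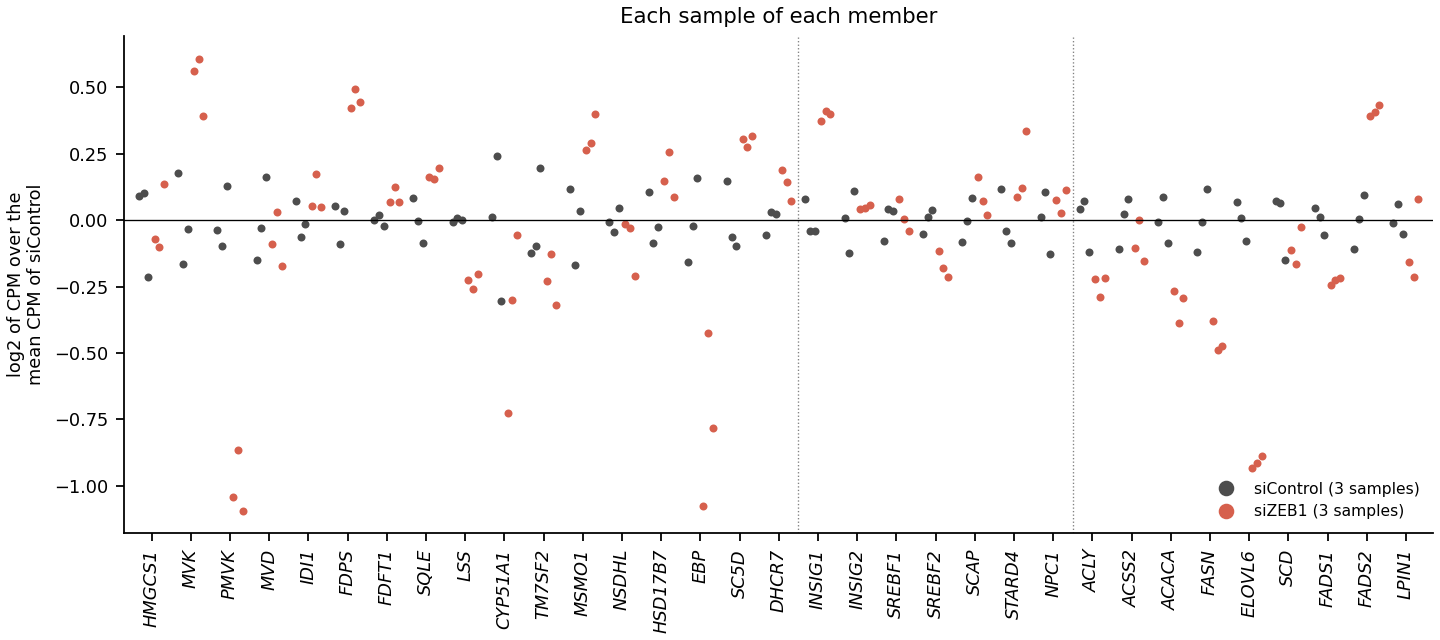
Each sample of each member, as log2 of its CPM over the mean CPM of siControl, with siControl and siZEB1 samples as separate points and genes in pathway order. For PMVK, EBP and ELOVL6 every siZEB1 point lies below every siControl point, and for MVK, FDPS, INSIG1 and FADS2 every siZEB1 point lies above.

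Among the regulators, INSIG1 rose, SREBF2 was slightly lower and the rest were not called. Of the 7 genes of regulation and transport 1 was higher and 1 lower, with a median log2 fold change of 0.072. SREBF2 was at 169, 177 and 180.3 CPM in siControl and at 162, 155 and 151 CPM in siZEB1, without overlap. It fell by 0.17 on the log2 scale (SE 0.059, adjusted p = 0.0295, edgeR), but the call was lost in 6 of 12 alternatives, 5 of them with 1 sample left out, with an adjusted p of up to 0.136. SREBF1 was at 57.7, 62.8 and 62.4 CPM in siControl and at 64.4, 61.2 and 59.3 CPM in siZEB1. Its groups overlapped, and the log2 fold change of 0.016 had a 95% interval of -0.13 to 0.16. Gene counts do not separate the SREBP1a and SREBP1c transcripts of SREBF1, nor do they measure cleavage of either protein.

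INSIG1 and INSIG2 encode the retention proteins of the SCAP complex, and INSIG1 is itself an SREBP target. INSIG1 (chromosome 7, 155297776 to 155310235) was at 50.8, 46.8 and 46.7 CPM in siControl and at 62.3, 64.0 and 63.4 CPM in siZEB1. All siZEB1 samples were higher, and INSIG1 rose by 0.39 on the log2 scale (SE 0.068, adjusted p = 0.000183, edgeR). INSIG2 was at 17.2, 15.7 and 18.4 CPM in siControl and at 17.6, 17.6 and 17.8 CPM in siZEB1, with a 95% interval of -0.14 to 0.24 around a log2 fold change of 0.050. SCAP, the escort, had a log2 fold change of 0.087 (101 to 108 CPM). STARD4, a soluble sterol carrier, had 0.19 (102 ± 7.72 to 116 ± 11.1 CPM) with an adjusted p of 0.0651 by edgeR, and was called without siControl replicate 1 (adjusted p = 0.0235). NPC1, which exports cholesterol from lysosomes, had 0.072 (134 to 141 CPM).

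In the fatty acid branch 5 of 9 genes fell, ACLY, ACACA, FASN, ELOVL6 and FADS1, while FADS2 rose and ACSS2, SCD and LPIN1 were not called. ACLY, which splits citrate to cytosolic acetyl-CoA, fell from 367 ± 25.8 to 309.9 ± 8.47 CPM (log2 fold change -0.24, adjusted p = 0.00376, edgeR). ACSS2, which makes acetyl-CoA from acetate, had a log2 fold change of -0.084 (81.7 to 77.1 CPM) and was not called. ACACA, the carboxylase that makes malonyl-CoA, fell from 119 ± 7.05 to 95.7 ± 4.16 CPM (log2 fold change -0.32, adjusted p = 0.00109, edgeR).

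FASN, the synthase that builds palmitate from malonyl-CoA, was at 514, 555 and 605 CPM in siControl and at 429, 398 and 402 CPM in siZEB1. The groups did not overlap, and FASN (chromosome 17, 82078333 to 82098332) fell by 0.45 on the log2 scale (SE 0.062, adjusted p = 2.23e-05, edgeR), or 26.6% of its siControl mean. ELOVL6, the elongase that takes palmitate to stearate, was at 39.2, 37.6 and 35.4 CPM in siControl and at 19.6, 19.8 and 20.2 CPM in siZEB1. It fell by 0.91 on the log2 scale (SE 0.079, adjusted p = 1.01e-07, edgeR), or 46.8%, the largest change of the branch. SCD, which puts the first double bond into stearate and palmitate, was at 739 ± 63.3 CPM in siControl and 689.9 ± 33.8 CPM in siZEB1. Its groups overlapped, its 95% interval ran from -0.23 to 0.034, and it was called only without siControl replicate 3 (log2 fold change -0.17, adjusted p = 0.0141, edgeR). LPIN1, the phosphatidate phosphatase, had a log2 fold change of -0.092 (30.7 to 28.9 CPM).

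FADS1 and FADS2, neighbouring desaturases of polyunsaturated fatty acids, moved apart. They lie head to head on chromosome 11, where the 2 RefSeq starts of FADS2 are 599 and 800 bases from the start of FADS1, inside its transcribed span. FADS1 was at 161, 157 and 150.0 CPM in siControl and at 132, 133 and 134 CPM in siZEB1, and fell by 0.23 on the log2 scale (SE 0.059, adjusted p = 0.00489, edgeR). FADS2 was at 45.9, 49.7 and 52.9 CPM in siControl and at 64.9, 65.6 and 66.8 CPM in siZEB1, and rose by 0.41 on the log2 scale (SE 0.071, adjusted p = 0.00018, edgeR). Neither gene's groups overlapped. The genes share 490 exonic bases on opposite strands, 4.79% of FADS1 and 4.44% of FADS2, and the part of those bases in the result was not tested.

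Each pair of paralogs was also compared within samples, as the log2 ratio of their CPM, whose change between groups does not depend on the scaling. FADS1 over FADS2 was 1.81, 1.66 and 1.5 in siControl and 1.02, 1.02 and 1.01 in siZEB1, a difference of -0.64. INSIG1 over INSIG2 was 1.57, 1.58 and 1.34 in siControl and 1.82, 1.86 and 1.83 in siZEB1, a difference of 0.34. SREBF1 over SREBF2 was -1.55, -1.49 and -1.53 in siControl and -1.33, -1.34 and -1.35 in siZEB1, a difference of 0.19. In each of the 3 pairs the groups did not overlap. Each pair holds a called member whose own groups did not overlap, as was so for 49.5% of all genes tested. The share among other pairs of genes was not computed. The two-sided exact permutation p was 0.1 for each (adjusted 0.1 over the 3 pairs), which is the smallest that 3 samples against 3 allow.

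**Figure D3:**
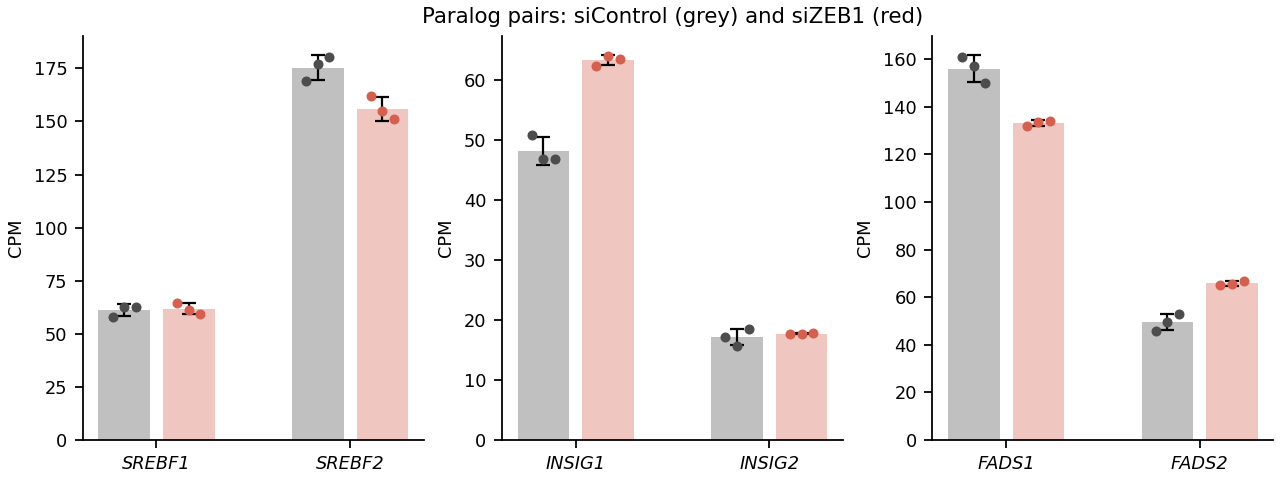
CPM of the members of 3 paralog pairs in each sample, siControl in grey and siZEB1 in red, on linear axes from 0. FADS1 is lower (156 to 133 CPM) and FADS2 higher (49.5 to 65.8 CPM) in siZEB1, INSIG1 is higher (48.1 to 63.2 CPM) with INSIG2 at 17.1 and 17.7 CPM, and SREBF2 is lower (175 to 156 CPM) with SREBF1 at 60.9 and 61.6 CPM.

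The members spanned a wide range of level per length, here CPM per kilobase of exons in siControl. SCD was highest at 138, followed by ACLY at 70.3, FASN at 59.6 and DHCR7 at 45.3, so 3 of the 4 highest belong to the fatty acid branch. CYP51A1 at 1.39, HSD17B7 at 2.13, MVK at 2.23 and LPIN1 at 2.59 were lowest. CYP51A1 was divided by its full exon length, 79.4% of which is shared with AC000120.2 on the same strand. Its place at the bottom is therefore uncertain. On the same scale SREBF2 was at 23.2 and SREBF1 at 7.59. In siZEB1 the same 4 genes were highest, with SCD at 129, ACLY at 59.4, DHCR7 at 49.8 and FASN at 43.8. PMVK stood at 11.2 in siControl and 5.63 in siZEB1, and ELOVL6 at 5.12 and 2.72.

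**Figure D4:**
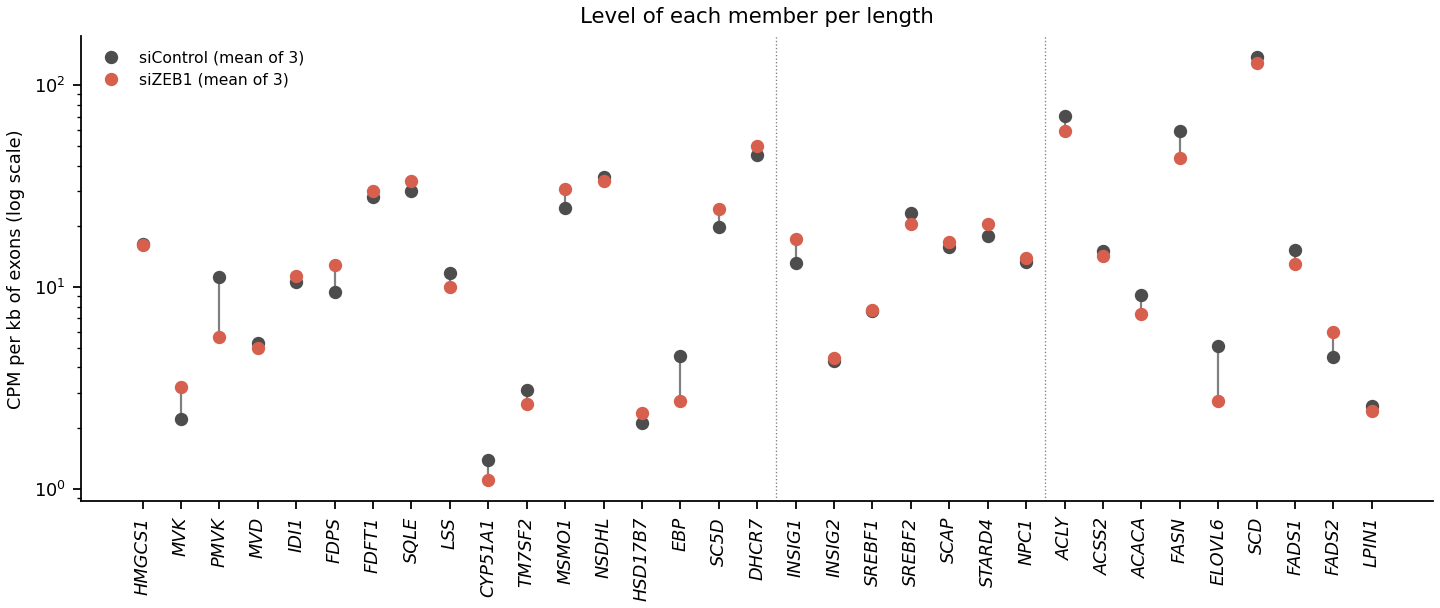
Level of each member as CPM per kilobase of exons on a log axis, as group means with siControl and siZEB1 marked separately. SCD stands highest at 138 in siControl and CYP51A1 lowest at 1.39. The CYP51A1 level is uncertain, since 79.4% of its exonic bases are shared with AC000120.2. The distance between the groups is widest for PMVK and ELOVL6.

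Genes around these pathways were read from 5 further lists, by the same fit. The list closest to the fatty acid branch, other genes of fatty acid synthesis, had 25 of 31 genes tested, with 6 higher and 11 lower (68.0% called, against 40.2% of all genes) and a median log2 fold change of -0.19. Its estimates split almost evenly, with 12 above 0 and 13 below. The median is the value of MID1IP1, which was not called, and the next gene up, ACSL3, was at 0.018. This median therefore does not show a fall of the list. ACSL6, an acyl-CoA synthetase, fell from 6.53 ± 0.592 to 3.35 ± 0.101 CPM (log2 fold change -0.96), and ACSS1, the mitochondrial acetate enzyme, fell from 8.73 ± 0.604 to 4.73 ± 0.709 CPM (-0.88). ELOVL7, an elongase of long saturated chains, was at only 1.19 ± 0.501 and 2.20 ± 0.501 CPM with overlapping groups, and its call at a log2 fold change of 0.91 held in 8 of 12 alternatives (adjusted p = 0.0215, up to 0.112 across them, edgeR).

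Glycerolipid assembly had 15 of 16 genes tested, with 3 higher and 8 lower (73.3% called) and a median of -0.27. DGAT1, which makes triacylglycerol, fell from 10.1 ± 0.864 to 5.62 ± 0.657 CPM (log2 fold change -0.84). LPIN3, a relative of LPIN1, fell by 0.63 on the log2 scale. PLIN2, which coats lipid droplets, fell from 477 ± 10 to 315 ± 10.8 CPM (log2 fold change -0.60, adjusted p = 1.40e-07, edgeR).

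The 3 lists next to the sterol branch had medians close to 0, and their called shares are read against 40.2% of all genes. SREBP processing and sterol-linked ligases of the endoplasmic reticulum (13 of 13 tested) had 4 higher and 3 lower (53.8% called), with a median of -0.0014, yet held the widest changes. SEC23A, a coat protein of the vesicles that leave the endoplasmic reticulum, fell from 105 ± 11.7 to 51.0 ± 0.886 CPM (log2 fold change -1.04, adjusted p = 2.37e-08, edgeR), and its partner SEC24D fell by 0.67 on the log2 scale. ERLIN2, which takes part in degradation at the endoplasmic reticulum, rose from 19.2 ± 0.978 to 39.1 ± 3.31 CPM (log2 fold change 1.02, adjusted p = 7.26e-08, edgeR).

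Isoprenoid and other sterol genes (14 of 14 tested) had 2 higher and 4 lower (42.9% called), with a median of -0.071. PDSS2, of the ubiquinone side chain, rose by a log2 fold change of 0.81, while CYB5B, an outer mitochondrial membrane cytochrome, fell by 0.53 on the log2 scale and DHDDS, of dolichol synthesis, fell by 0.49 on the log2 scale. Sterol uptake, storage and efflux (14 of 17 tested) had 2 higher and 2 lower (28.6% called), with a median of -0.097. SCARB1, the high-density lipoprotein receptor, fell from 135 ± 6.06 to 87.0 ± 3.92 CPM (log2 fold change -0.63), and SOAT1, which esterifies cholesterol, fell from 67.0 ± 4.17 to 47.6 ± 1.39 CPM (-0.49). MYLIP, a ligase that degrades lipoprotein receptors, rose from 22.8 ± 2.86 to 32.1 ± 2.08 CPM (0.49).

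**Figure D5:**
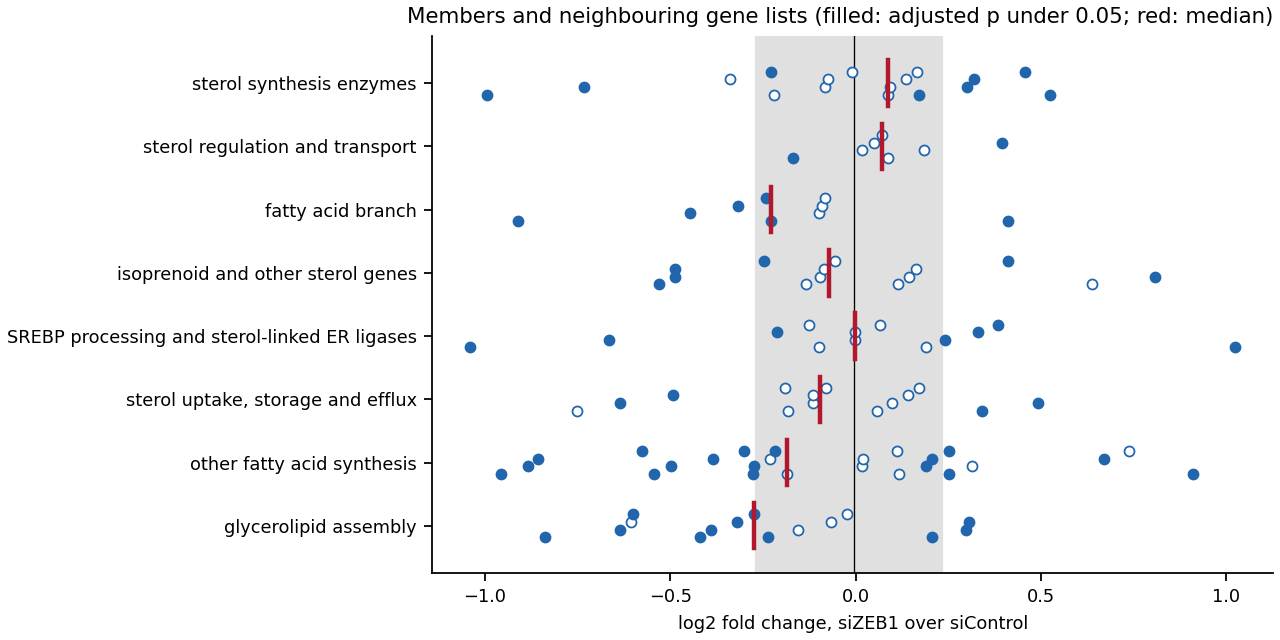
Log2 fold change of siZEB1 over siControl for each gene of the 3 groups of members and of 5 neighbouring lists, filled where the adjusted p was under 0.05, with the median of each list in red. The medians of the fatty acid branch (-0.23), other fatty acid synthesis (-0.19) and glycerolipid assembly (-0.27) sit lowest, and that of the sterol synthesis enzymes (0.087) sits highest. Estimates of other fatty acid synthesis split evenly around 0 (12 above, 13 below), unlike the fatty acid branch (1 above, 8 below) and glycerolipid assembly (3 above, 12 below).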

How the data were processed

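RNA was sequenced from 6 SW480 samples, 3 siControl (labelled siNC) and 3 siZEB1, given by the authors as biological replicates. The authors deposited raw counts of reads per Ensembl gene, 1 table per sample. The submitters' processing notes name Trimmomatic, HISAT2, SAMtools, featureCounts and hg38; the annotation and the strand setting are not given in the sources used here, so reads of overlapping antisense genes may be shared. Of 32029 genes, 31059 matched GENCODE 29, used for coordinates, exon lengths and overlaps.

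Genes kept by filterByExpr were scaled by TMM, and siZEB1 was set against siControl by the quasi-likelihood test of edgeR 4.0.16 (with limma 3.58.1 in R 4.3.3). The test was two-sided and had no covariates, and p-values were adjusted by Benjamini-Hochberg across 14996 genes. Levels other than the marker sums are CPM on those size factors, SD is over samples, and intervals cover 95%. The biological coefficient of variation was 6.58%. Within each group, pairs of samples gave a chi-square over degrees of freedom of 2.27 to 9.58, so none was a copy of another. P-values reflect the spread between these samples. The fit was tested on simulated data. Pairs were compared in Python 3.11.15 with scipy 1.17.1. Promoter windows came from RefSeq.

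The 33 members, their grouping and the 5 further lists were chosen with earlier results of these data known, so counts and medians over them are descriptions. Per-sample values are printed for called members among the 8 largest absolute changes and for SREBF1, SREBF2, INSIG1, INSIG2, FADS1, FADS2, HMGCS1 and FASN. From each further list up to 3 called genes with the largest change are named. Alternatives were DESeq2 1.42.0, total library size, median-of-ratios size factors, no filter, at least 10 counts in every sample, a replicate block, each of 6 samples left out, and a 1.5-fold change with unadjusted p under 0.05.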

Additional observations from a re-analysis of the deposited data

How the results depend on the processing

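Over 408 recomputed log2 fold changes of ZEB1 and the 33 members, 390 kept their side of the threshold, 14 lost it, 4 gained it and no called value changed sign. Signs changed under some setting for 4 genes that were not called, HMGCS1, MVD, INSIG2 and SREBF1. The losses were in SQLE, SREBF2 and LSS. The medians of the sterol enzymes (0.050 to 0.098) and of the fatty acid branch (-0.26 to -0.21) kept their sign with any 1 sample left out. Leaving out 1 sample moved the counts of regulation and transport genes to between 1 and 2 higher and 0 and 1 lower, of isoprenoid genes to 1 to 3 higher, of other fatty acid synthesis to 3 to 6 higher and of glycerolipid assembly to 1 to 3 higher.

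With a 1.5-fold change and an unadjusted p under 0.05 as the call, there were 1081 genes higher and 1402 lower over all genes. By this rule the sterol enzymes had 0 higher and 2 lower, regulation and transport 0 higher and 0 lower, the fatty acid branch 0 higher and 1 lower, isoprenoid genes 2 higher and 0 lower, SREBP processing 1 higher and 2 lower, sterol uptake 0 higher and 1 lower, other fatty acid synthesis 3 higher and 3 lower, and glycerolipid assembly 0 higher and 3 lower. The fold threshold itself removes these calls, since most members changed by less.

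With the replicate number as a block, 2289 genes were higher and 2679 lower, regulation and transport had 0 lower, other fatty acid synthesis 3 higher and glycerolipid assembly 1 higher, and SQLE, SREBF2 and LSS (adjusted p = 0.0571, edgeR) were not called. The numbers did not pair the samples: deviations of same-numbered samples correlated at -0.30, -0.32 and -0.63 over 9394 genes, and no sample correlated best with its own number. Differently numbered samples did share variation, at 0.53 for siControl replicate 3 with siZEB1 replicate 2. The same 0.53 was seen for siControl replicate 1 with siZEB1 replicate 3. A block that follows this shared variation was not fitted. CYP51A1, the least abundant member as counted, had the widest standard error, 0.19 on the log2 scale, and the cause was not tested.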
